A study of Mus musculus with 6 samples.

Results

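Heat shock proteins of the cytosol and the mitochondrion were followed in mouse embryos carrying a STAT3 allele altered at a pair of lysines. The set holds 10 genes, namely Hspa1a, Hspa1b, Hspa8, Hsp90aa1, Hsp90ab1, Hspb1, Cryab, Dnaja1, Dnajb1 and Hspd1. Their probes were found through the transcript accession printed on the array, which gave 13 probes for 9 of the genes, out of 39429 gene probes and 20659 gene symbols matched in all. Hspa8 had 3 probes, Cryab and Dnaja1 had 2 each, and the other 6 genes had 1. No probe was matched to Hspa1b, which is not analysed here as a separate gene.

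Whole embryos aged 12 days were compared in 3 genotypes of the STAT3-K177K180R line, with 2 homozygous, 2 heterozygous and 2 wild-type embryos, 1 array each. According to the labels the embryos came from the same womb, and no other allele or agent is named for any group. The extraction text speaks of tumor tissue and the titles add the word mutant to wild type, so genotypes follow the titles. Since nothing states separate litters or cultures, the p-values measure only the spread between these 6 embryos.

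Heat shock proteins are molecular chaperones, which bind proteins that are not yet folded or have lost their fold. The heat shock factor HSF1 raises many of them under stress by binding repeats of the unit GAA in their promoters, while constitutive members such as Hspa8 and Hsp90ab1 serve folding in unstressed and dividing cells. HSP70 proteins take up clients with the help of J-domain partners, HSP90 proteins mature kinases and steroid receptors, small heat shock proteins hold unfolded clients, and the chaperonin HSP60 folds proteins inside mitochondria.

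Promoters of 5 genes of the set are shown first because they hold the heat-shock unit by which HSF1 is known to act. RefSeq promoter windows of the GRCm38.p6 build, reaching from 250 bases before to 50 bases after each start, were found for 6 genes, with 10 windows in all. The unit was searched on both strands as GAANNTTC and as TTCNNGAA, and 5 of the 10 windows, each from a different gene, held at least 1. Among 32851 promoters of the same length, 7.86% held GAANNTTC and 8.52% held TTCNNGAA. The share holding either form was not computed, so the count of 5 has no like share beside it. The stretches below run 5′ to 3′ on the gene's strand from 160 to 61 bases before the start, with the units in capitals.
Hspd1 (chr1:55087993-55088092, minus strand): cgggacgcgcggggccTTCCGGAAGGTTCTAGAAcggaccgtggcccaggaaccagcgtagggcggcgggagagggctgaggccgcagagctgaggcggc
Dnaja1 (chr4:40722308-40722407, plus strand): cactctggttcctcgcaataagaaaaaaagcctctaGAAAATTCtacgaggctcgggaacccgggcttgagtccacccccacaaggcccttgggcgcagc
Hspb1 (chr5:135887759-135887858, plus strand): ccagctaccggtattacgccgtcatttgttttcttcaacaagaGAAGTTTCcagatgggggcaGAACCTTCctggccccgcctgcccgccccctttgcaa
Hspa1a (chr17:34972217-34972316, minus strand): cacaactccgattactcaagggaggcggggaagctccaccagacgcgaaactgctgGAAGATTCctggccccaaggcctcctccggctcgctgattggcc
Hspa1b (chr17:34959299-34959398, minus strand): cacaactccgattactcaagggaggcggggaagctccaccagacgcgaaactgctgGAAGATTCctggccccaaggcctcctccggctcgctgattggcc

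The Hspd1 window held overlapping units that form a longer run, in which a heat-shock motif of 3 alternating GAA units matched at 2 overlapping places; 0.603% of all promoters hold that motif. Hspb1 carried 2 separate units, and Dnaja1, Hspa1a and Hspa1b carried 1 each. The Hspa1a and Hspa1b stretches were identical, and over the full 300 bases their windows differed at 4 positions. The STAT-type motif TTCNNNGAA, present in 8.30% of all promoters, was in none of the 10 windows. Neither window of Dnajb1 held a heat-shock unit, and no window was listed for Hspa8, Hsp90aa1, Hsp90ab1 or Cryab. A match describes letters in these windows and does not show binding.

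Values below are log2 signals relative to the 75th percentile of the same array, so that 0 is the brightness of that percentile and 1 unit is a doubling. A level is compared only within a probe, since brightness also depends on the probe. All 13 probes were well above background on all 6 arrays, and no spot was saturated. Between 72.0% and 74.6% of gene spots were well above background on homozygous arrays, against 76.0% to 78.3% on heterozygous and 76.4% to 77.1% on wild-type arrays. The median signal of negative controls was 43.5 and 48 on the homozygous arrays, against 26 to 27 on the others. The 75th percentile of processed signal was 856 and 784 on homozygous arrays, 1186 and 1258 on heterozygous and 1035 and 1064 on wild-type arrays. Scaling therefore raised homozygous values relative to the others. The slide was inferred from the scan time in the file headers. By that time, both homozygous arrays lay on 1 slide, while the heterozygous and wild-type arrays shared the other. A homozygous difference and a slide or scan difference therefore cannot be told apart. In whole embryos, fewer cells of a type and less RNA per cell cannot be told apart either. All 8 embryonic erythroid, all 7 fetal hepatocyte, all 7 neural and all 12 cardiac markers were measured, and in homozygous against wild-type embryos 4 hepatocyte markers passed as higher, 1 neural marker as higher and 1 as lower, and 0 erythroid markers, where 14.9% of all named genes passed as higher and 10.4% as lower. Of 8 trophoblast and decidua markers 4 were measured, and their summed level, in multiples of the 75th percentile, was 17.3 and 8.28 in homozygous embryos, 58.0 and 40.9 in heterozygous and 49.9 and 57.5 in wild-type embryos. These 4 did not share a direction. Their homozygous minus wild-type differences ran from -2.21 to 0.77 with a median of -0.08, and 1 passed as higher and 2 as lower. The part of such tissue content in the differences below was not tested. The brighter probe of Stat3 itself stood at 1.39 and 1.1 in homozygous embryos, 1.07 and 0.82 in heterozygous and 0.82 and 0.82 in wild-type embryos (homozygous minus wild type 0.43 ± 0.16 SE, limma adjusted p = 0.0919). A dimmer Stat3 probe read -4.81 and -3.52 in homozygous and -4.42 and -4.47 in wild-type embryos (0.28, limma adjusted p = 0.606). A substitution leaves the transcript in place, so the Stat3 level does not check the genotype.

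In homozygous embryos 3 of the 13 probes were higher than in wild type and 1 was lower at a limma adjusted p below 0.05. The higher ones were Hsp90ab1, the brighter Cryab probe and the brighter Dnaja1 probe, and the lower one was the second Hspa8 probe. Over all 29910 probes tested, 13.2% passed as higher and 14.5% as lower, or 27.8% in either direction, against 30.8% of the heat shock probes. The share of heat shock probes that passed was therefore near that of the array as a whole, and the count is not a result about these genes. The median difference of the 13 probes was 0.36, against 0.08 over all probes. Without either wild-type embryo 1 of the 13, Hsp90ab1, passed as higher and 563 to 834 of all probes did. In heterozygous embryos none of the 13 passed.

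**Figure D1:**
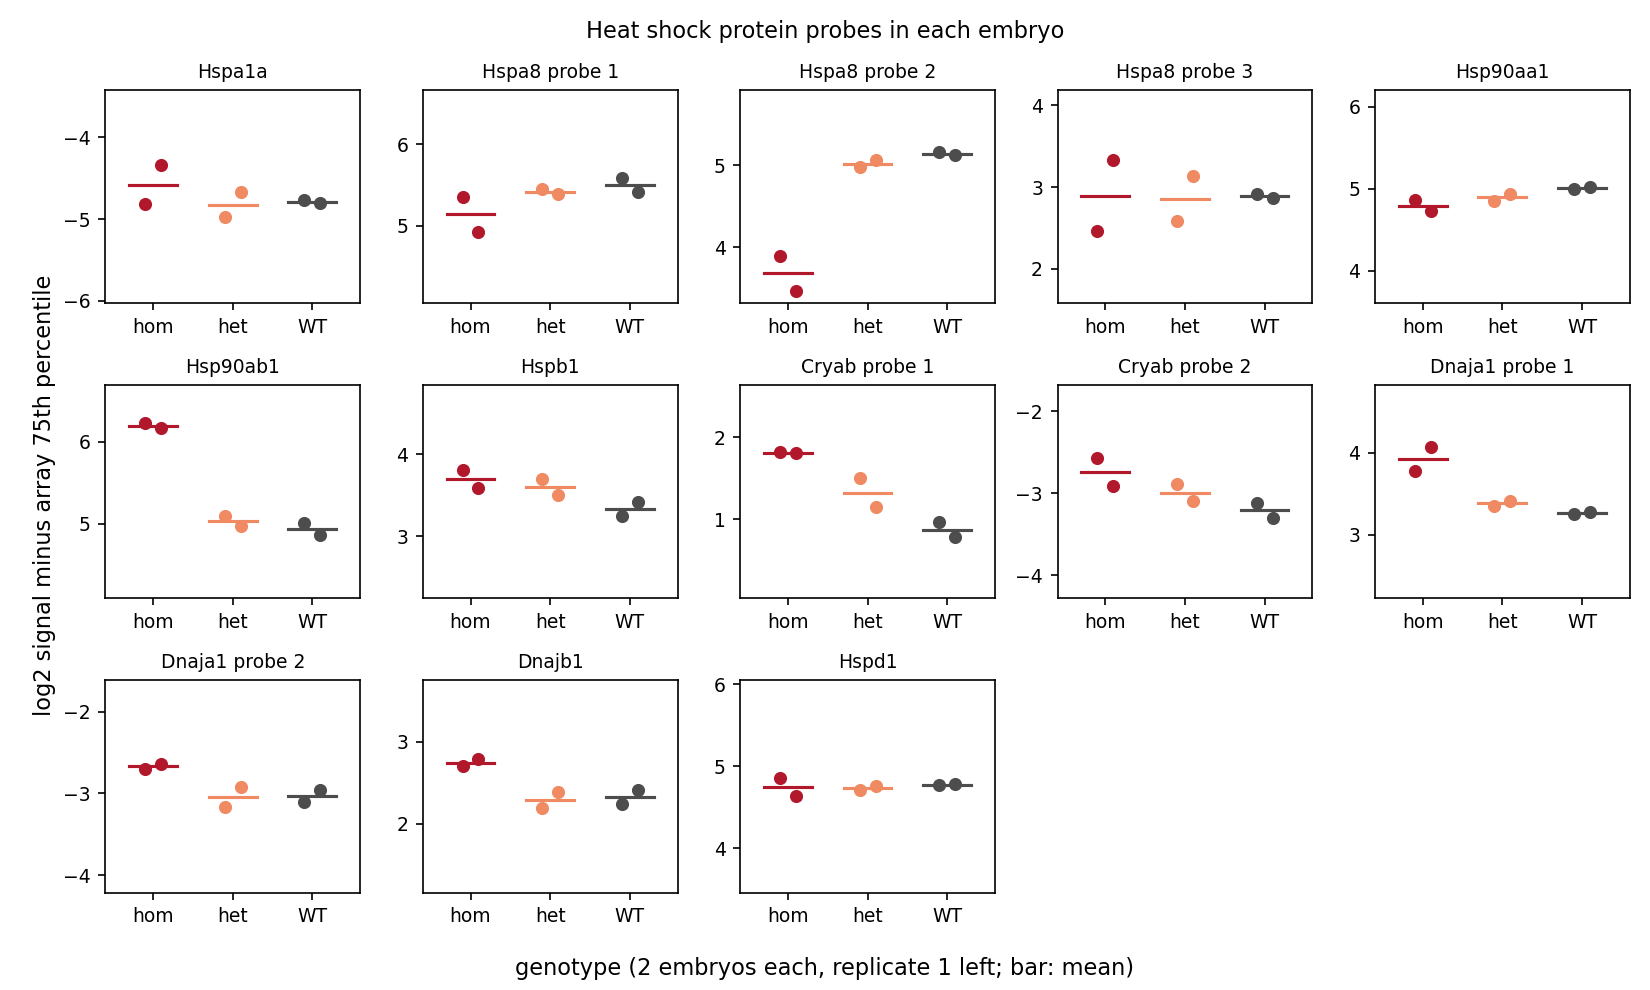
Log2 signal minus the array's 75th percentile for each of the 13 probes (y axis; every panel spans the same number of log2 units) in homozygous (hom), heterozygous (het) and wild-type (WT) embryos, 1 point per embryo with the mean as a bar. Homozygous embryos stand apart for Hsp90ab1 (6.23 and 6.17) and for the second Hspa8 probe (3.89 and 3.47), while Hspd1 lies at about the same height in all 6.

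Of the HSP90 pair, Hsp90ab1 showed the largest rise of any member and Hsp90aa1 did not pass. Hsp90ab1, the constitutive cytosolic HSP90, measured 6.23 and 6.17 in homozygous embryos, 5.10 and 4.98 in heterozygous and 5.01 and 4.87 in wild-type embryos. Both homozygous embryos lay well above the other 4, while heterozygous and wild-type embryos overlapped. The homozygous minus wild-type difference was 1.26 ± 0.13 (SE, 95% interval 0.95 to 1.58, limma adjusted p = 0.0021), or 2.40-fold. Against heterozygous embryos it was 1.16 ± 0.13 (adjusted p = 0.00306). The processed signal of this probe reached 64107 and 56454 on the homozygous arrays, against 40619 and 39617 on heterozygous and 33234 and 31063 on wild-type arrays. On the homozygous arrays this was the brightest probe of the set, and none of its spots was marked as saturated.

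Hsp90aa1, the stress-inducible cytosolic HSP90, read 4.86 and 4.73 in homozygous embryos, 4.85 and 4.94 in heterozygous embryos and 4.99 and 5.02 in wild-type embryos. Wild type was highest in both embryos, but the gap was small. The difference of -0.21 ± 0.13 (95% interval -0.52 to 0.09, limma adjusted p = 0.243) did not pass, and the interval does not include the size seen for Hsp90ab1.

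Within each array the balance between these paralogues can be read without any scaling. Hsp90ab1 minus Hsp90aa1 was 1.37 and 1.44 in homozygous embryos, 0.25 and 0.04 in heterozygous and 0.01 and -0.16 in wild-type embryos. The offset itself depends on the probes, but it was 1.48 higher in homozygous than in wild-type embryos and both homozygous embryos stood far from the other 4. With 2 embryos against 2, the smallest two-sided exact permutation p is 0.333, so this value carries no test of its own.

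**Figure D2:**
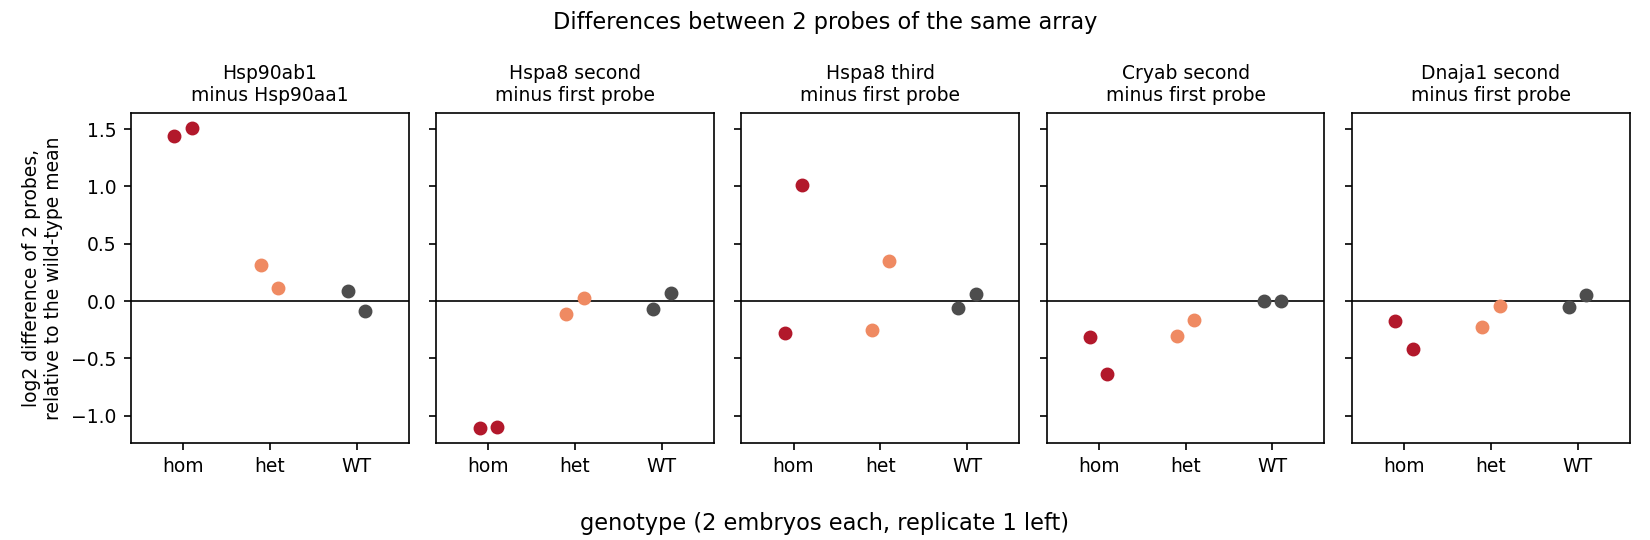
Difference between a pair of probes of the same array (log2, y axis), set to a wild-type mean of 0, for each embryo of the 3 genotypes. The homozygous embryos lie apart for Hsp90ab1 minus Hsp90aa1 and for the second minus the first Hspa8 probe, and are spread on both sides of the others for the third minus the first Hspa8 probe.

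Hspa8 encodes HSC70, the constitutive cytosolic HSP70, and its 3 probes did not give 1 answer although all carry the same transcript accession. The brightest read 5.36 and 4.93 in homozygous embryos, 5.45 and 5.39 in heterozygous and 5.59 and 5.41 in wild-type embryos. Homozygous embryos were lower without overlap, but the difference of -0.36 ± 0.18 (95% interval -0.78 to 0.07, limma adjusted p = 0.174) did not pass. Leaving out the first homozygous embryo gave -0.57 (adjusted p = 0.029), while the values without 1 embryo ranged from -0.57 to -0.14 with an adjusted p of up to 0.509. Normexp with quantile normalization gave -0.42 (adjusted p = 0.0368).

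The second Hspa8 probe measured 3.89 and 3.47 in homozygous embryos, 4.98 and 5.06 in heterozygous and 5.16 and 5.12 in wild-type embryos. It fell by 1.46 ± 0.17 in homozygous embryos relative to wild type (limma adjusted p = 0.00282), which is 2.75-fold, and by 1.34 relative to heterozygous embryos (adjusted p = 0.00435). No other probe of the set was lower past the threshold. The third probe gave 2.46 and 3.33 in homozygous embryos, 2.58 and 3.13 in heterozygous and 2.91 and 2.86 in wild-type embryos, and its difference was 0.01 ± 0.31 (95% interval -0.74 to 0.76). Here the embryos of a genotype spread more widely than the genotypes did.

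Set against the brightest probe on the same array, the second Hspa8 probe stood at -1.47 and -1.46 in homozygous embryos, -0.47 and -0.33 in heterozygous and -0.43 and -0.29 in wild-type embryos. The probes of this gene thus diverged by 1.1 between homozygous and wild-type embryos, so no single direction is given for Hspa8. The probe sequences were not used here, and whether transcript forms, related copies or the slide set this gap was not tested.

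Hspa1a, the stress-inducible HSP70, was the dimmest member, with processed signals of 30.5 and 38.6 on homozygous arrays, 37.6 and 49.3 on heterozygous and 38.0 and 38.1 on wild-type arrays. On the log2 scale it read -4.81 and -4.34 in homozygous embryos, -4.98 and -4.67 in heterozygous embryos and -4.77 and -4.80 in wild-type embryos. All genotypes overlapped, and the difference of 0.21 ± 0.20 (95% interval -0.27 to 0.68, limma adjusted p = 0.455) did not pass. Under normexp background correction it was 0.36 with an adjusted p of 0.0371, a setting that also moved the median of all probes to 0.19. Because Hspa1b is a near-identical copy, whether this probe also reads Hspa1b is uncertain.

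The J-domain proteins, which deliver clients to HSP70 and stimulate its ATPase, had positive differences from wild type at all 3 probes in homozygous embryos, with 1 past the threshold. Dnaja1, a cytosolic partner of HSC70, measured 3.77 and 4.08 at its brighter probe in homozygous embryos, 3.36 and 3.42 in heterozygous and 3.25 and 3.28 in wild-type embryos. The genotypes were in that order with no overlap. Before scaling, homozygous and heterozygous embryos overlapped. Processed signals were 11709 and 13246 in homozygous, 12160 and 13456 in heterozygous and 9848 and 10357 in wild-type embryos. After scaling, this probe rose by 0.66 ± 0.15 against wild type (95% interval 0.30 to 1.01, limma adjusted p = 0.0219, 1.58-fold) and by 0.54 against heterozygous embryos (adjusted p = 0.0452). Without either wild-type embryo the first difference no longer passed, at 0.64 and 0.68 with adjusted p of 0.132 and 0.127. The difference from heterozygous embryos did not pass without either wild-type embryo (adjusted p = 0.107), without the first or the second heterozygous embryo (0.184 and 0.134), without the second homozygous embryo (0.39, adjusted p = 0.0877) or with no filter on dim probes (0.0746).

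The dimmer Dnaja1 probe read -2.70 and -2.64 in homozygous embryos, -3.17 and -2.92 in heterozygous and -3.10 and -2.96 in wild-type embryos. Its difference of 0.36 had an adjusted p of 0.107 in the limma fit, with the homozygous embryos above all others. Dnajb1, the HSP40 that is induced with HSP70 under heat stress, gave 2.70 and 2.79 in homozygous embryos, 2.19 and 2.39 in heterozygous and 2.24 and 2.42 in wild-type embryos. Again both homozygous embryos were highest, and the difference of 0.42 ± 0.14 (95% interval 0.08 to 0.76) missed the threshold (limma adjusted p = 0.0714). Before scaling, homozygous Dnajb1 signals (5574 and 5430) overlapped those of wild type (4883 and 5674).

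Of the small heat shock proteins in the set, Cryab passed and Hspb1 did not. Cryab, alphaB-crystallin, is a holdase abundant in lens and in heart and skeletal muscle. Its brighter probe read 1.82 and 1.80 in homozygous embryos, 1.5 and 1.14 in heterozygous and 0.96 and 0.78 in wild-type embryos. The genotypes stood in order without overlap. Before scaling, homozygous signals (3027 and 2734) overlapped heterozygous ones (3354 and 2776) and lay above wild-type ones (2018 and 1826). The homozygous rise over wild type was 0.94 ± 0.16 (95% interval 0.55 to 1.34, limma adjusted p = 0.0101), or 1.92-fold. It no longer passed without the first or the second wild-type embryo, at 1.03 and 0.85.

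In heterozygous embryos the same Cryab probe differed from wild type by 0.45 ± 0.16, the only member with an unadjusted p below 0.05 in that comparison (0.0316, limma adjusted p = 1.00). The homozygous minus heterozygous difference was 0.49 (adjusted p = 0.0756). The dimmer Cryab probe gave -2.57 and -2.91 in homozygous embryos, -2.89 and -3.10 in heterozygous and -3.11 and -3.30 in wild-type embryos. Its homozygous minus wild-type difference was 0.47 (adjusted p = 0.0883), of the same sign as at the brighter probe.

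Lens markers differed between the same embryos. Of 19 lens genes, 17 were measured. Their median difference was 1.34 in homozygous and 1.06 in heterozygous embryos relative to wild type, against 0.14 and 0.01 over all named genes. In homozygous embryos 1 passed as higher, where 14.9% of all named genes did, and in heterozygous embryos 0 passed, where 0.0% did. The summed level of the lens genes, in multiples of the 75th percentile, was 9.24 and 9.63 in homozygous embryos, 9.48 and 4.87 in heterozygous and 1.65 and 6.73 in wild-type embryos. The first wild-type embryo was lowest and the second heterozygous embryo next. Cryaa, the lens partner of Cryab, read 1.60 and 1.63 in homozygous embryos, 1.45 and 0.46 in heterozygous and -1.28 and 0.93 in wild-type embryos. The homozygous minus wild-type difference of 1.79 did not pass (limma adjusted p = 0.0988). Another Cryaa probe at 0.08 did not pass either (adjusted p = 0.809). The brightest lens genes after Cryaa were Cryge, Cryba1 and Crygf.

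For cardiac markers the median and the summed level gave different pictures. All 12 were measured, and their median difference in homozygous embryos was 0.01, against 0.14 over all named genes. Of these 12, 1 passed as higher and 2 as lower, where 14.9% of all named genes passed as higher and 10.4% as lower. The summed level of the cardiac markers was 89.0 and 80.4 in homozygous embryos, 86.4 and 72.3 in heterozygous and 72.0 and 63.8 in wild-type embryos, with Actc1, Myl4, Myl2 and Myh7 the brightest. Of 10 skeletal muscle markers 2 passed as higher and 1 as lower in homozygous embryos, with a median of 0.23. Their summed level was 43.0 and 46.8 in homozygous embryos, 50.1 and 40.4 in heterozygous and 36.1 and 35.1 in wild-type embryos. In heterozygous against wild-type embryos all 12 cardiac and all 10 skeletal markers had positive differences, and 0 passed. The medians there were 0.32 and 0.46, against 0.01 over all named genes. The part of lens or muscle content in the Cryab difference was not tested.

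Hspb1, or HSP25 in the mouse, is an actin-protecting small heat shock protein. It read 3.81 and 3.59 in homozygous embryos, 3.70 and 3.50 in heterozygous embryos and 3.24 and 3.41 in wild-type embryos. Both wild-type embryos were lowest, and the mutant genotypes overlapped each other. Before scaling, homozygous signals (12013 and 9422) overlapped those of wild type (9807 and 11309). The homozygous difference of 0.37 ± 0.15 did not pass (limma adjusted p = 0.116), and the heterozygous one was 0.27. In the authors' deposited log2 table the homozygous difference was 0.46 and passed (adjusted p = 0.0409).

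Hspd1, the mitochondrial HSP60 and the member with the overlapping heat-shock units shown above, did not pass in any comparison. It measured 4.86 and 4.64 in homozygous embryos, 4.71 and 4.76 in heterozygous and 4.77 and 4.78 in wild-type embryos. The homozygous pair fell on both sides of the other 4. The difference of -0.03 ± 0.13 had a 95% interval of -0.35 to 0.29 (limma adjusted p = 0.883), which does not reach the size seen for Hsp90ab1, Cryab or Dnaja1. Its co-chaperonin Hspe1 differed by 0.22 (adjusted p = 0.229) at its brightest probe. Other Hspe1 probes at 0.23 (adjusted p = 0.235) and -0.53 (adjusted p = 0.201) did not pass either.

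**Figure D3:**
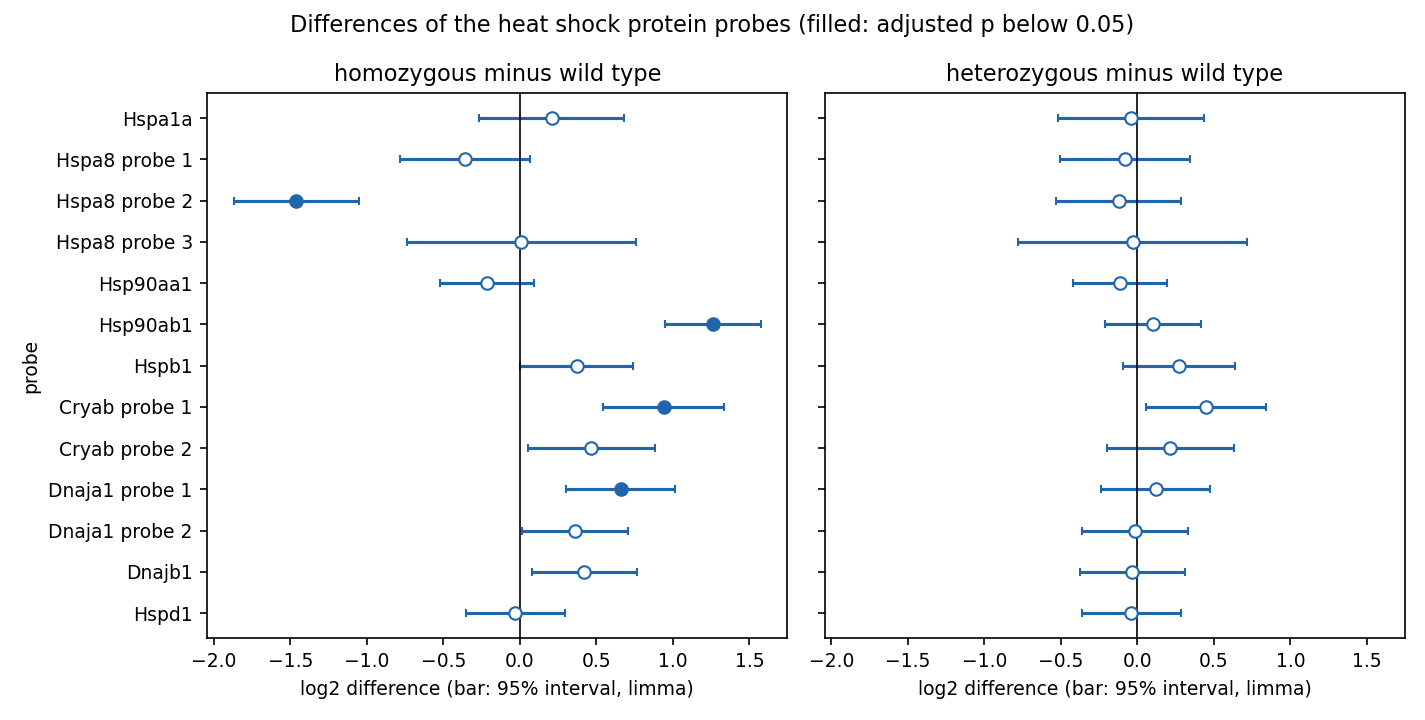
Log2 difference from wild type with its 95% interval from limma for each of the 13 probes, homozygous embryos on the left and heterozygous embryos on the right; filled points have an adjusted p below 0.05. In homozygous embryos 3 probes lie to the right and 1 to the left with filled points, and in heterozygous embryos no point is filled.

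Heterozygous embryos shared a scan time with wild type, so this comparison was taken to lie within 1 slide. None of the 13 probes passed, nor did any of the 29910 probes (0.0%), while 2.1% of all probes had an unadjusted p below 0.05. The differences ran from -0.12 at the second Hspa8 probe to 0.45 at the brighter Cryab probe, and their median was -0.03, against 0.00 over all probes. For 7 of the 13 probes the heterozygous and wild-type embryos did not overlap, where 26.6% of all probes behaved so (14.6% higher and 12.0% lower). Of these 7, 4 were higher in heterozygous embryos, namely both Cryab probes, Hspb1 and the brighter Dnaja1 probe. The 3 lower ones were the second Hspa8 probe, Hsp90aa1 and Hspd1. The 95% interval for Hsp90ab1, -0.21 to 0.41, does not include its homozygous difference of 1.26, and that for the second Hspa8 probe, -0.53 to 0.29, does not include -1.46.

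Homozygous and heterozygous embryos also differed in the slide. Of the 13 probes 2 were higher in homozygous embryos, Hsp90ab1 and the brighter Dnaja1 probe, and 1 was lower, the second Hspa8 probe, against 9.68% higher and 13.1% lower among all probes (22.8% in either direction). The count of higher probes fell to 1 in 5 of the 6 fits that left out 1 array, the exception being the first homozygous array. Homozygous and wild-type embryos did not overlap for 10 of the 13 probes, 7 higher and 3 lower, where 68.9% of all probes did not overlap (38.5% higher and 30.4% lower). The homozygous comparisons share the same 2 arrays, so their likeness is no independent support.

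Chaperone genes beyond the set were counted in 9 lists of 114 distinct genes, of which 110 were measured, each by its brightest kept probe. In homozygous embryos 16 were higher and 14 were lower than in wild type, or 27.3%, against 25.3% of all named genes (14.9% higher and 10.4% lower). The median difference was 0.21, against 0.14 over all named genes. Without either wild-type embryo 1 was higher and 6 were lower. Heterozygous embryos had 0 that passed in any list. The pooled homozygous share was close to that of all named genes, so it is not a result about chaperones. By list the homozygous share ran from 0% for the heat shock factors with Hsbp1 to 38.5% for mitochondrial chaperones and proteases. No list was tested. Each list count below stands against the same 14.9% higher and 10.4% lower of all named genes.

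The heat shock factors, which switch the stress genes on, together with Hsbp1 gave 0 of 5 past the threshold against wild type. Hsf1 differed by 0.23 (limma adjusted p = 0.233), Hsf2 by 0.47 (0.114), the lens factor Hsf4 by 0.55 (0.081), Hsf5 by -0.38 (0.145) and the HSF1-binding Hsbp1 by -0.25 (0.218). Of 20 other genes listed as HSF1 targets, 3 were higher and 1 was lower. They included the collagen chaperone Serpinh1 (0.80, adjusted p = 0.0117) and Fkbp4 on the higher side, and Stip1 on the lower.

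Of 18 HSP90 partners 4 passed as higher and 2 as lower, where 14.9% of all named genes passed as higher and 10.4% as lower. Fkbp4, a prolyl isomerase bound to steroid receptor complexes, read 2.14 and 2.32 in homozygous embryos, 1.48 and 1.56 in heterozygous and 1.44 and 1.34 in wild-type embryos. It was higher by 0.83 ± 0.13 (limma adjusted p = 0.00801). The kinase-loading co-chaperone Cdc37 was higher by 0.69 (adjusted p = 0.0156), and Ptges3, the p23 co-chaperone, by 0.75 (adjusted p = 0.00819), with another probe at 0.50 that passed (adjusted p = 0.0311) and further probes at 0.35 and -0.01 that did not. Stip1, or HOP, which links HSP70 to HSP90, was lower by a difference of -0.50 (adjusted p = 0.0276), and Ahsa2, a homologue of the HSP90 ATPase activator, by one of -0.85 (adjusted p = 0.0154), which was -0.34 with normexp background correction.

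In the rest of the HSP70 family 2 of 9 were higher and 1 was lower. Hspa12a, a distant HSP70 relative, had a large difference whose size depended on background correction. It read -4.65 and -4.41 in homozygous embryos, -1.95 and -2.11 in heterozygous and -2.14 and -2.12 in wild-type embryos, a difference of -2.40 ± 0.14 (limma adjusted p = 0.000515), which was -1.27 with normexp background correction. Hspa2, known for its role in spermatogenesis, was higher by 0.56 (adjusted p = 0.0306), and the mitochondrial HSP70 gene Hspa9 by 0.56 (adjusted p = 0.047). Hspa14 differed by 0.38 (adjusted p = 0.0694).

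Of 31 other J-domain genes measured, 4 were higher and 5 lower. Dnajc5, cysteine string protein of synaptic vesicles, was lower by a difference of -1.50 (limma adjusted p = 0.00318) at its brightest probe, while its other probes at -0.07 and 0.23 did not pass. Dnajc21, a ribosome biogenesis factor, differed by -0.99 (adjusted p = 0.00483), with another probe at -0.16 that did not pass. On the higher side were Dnajb14 of the endoplasmic reticulum (0.73, adjusted p = 0.0088) and mitochondrial Dnaja3 (0.78, adjusted p = 0.00949). As with Hspa8, probes of 1 gene could differ widely.

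Nucleotide exchange factors, which release ADP from HSP70, had 1 higher of 9, the mitochondrial Grpel1 (0.43, limma adjusted p = 0.0449), whose other probe at 0.19 did not pass. Hspbp1 differed by 0.50 (0.0538), Bag1 by 0.39 (0.0992) and Bag5 by 0.39 (0.0545). Another Bag1 probe at 0.26 (0.253) did not pass, and another Bag5 probe at 0.77 (0.00889) did. Among 13 mitochondrial chaperones and proteases 3 were higher, namely Hspa9, Dnaja3 and Grpel1, and 2 were lower. The lower ones were the protease subunit Clpp (-1.19, adjusted p = 0.00573) and the protease Lonp1 (-0.79, adjusted p = 0.0288).

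Other small heat shock proteins gave 1 higher and 1 lower of 8. Hspb7, a cardiac member, was higher by 0.80 (limma adjusted p = 0.0295) but 0.32 and not past the threshold with normexp and quantile normalization. Its heterozygous minus wild-type difference was 0.79, which did not pass, and homozygous minus heterozygous was 0.01. Hspb9, known from testis, was lower by a difference of -1.01 (limma adjusted p = 0.00373). Hspb8, the partner of Bag3, differed by 0.49 (0.0735). Hspb2, which neighbours Cryab in the genome, read 0.80 and 0.49 in homozygous embryos, 0.68 and 0.21 in heterozygous and 0.14 and 0.02 in wild-type embryos (0.57, adjusted p = 0.082), the same order of genotype means as Cryab.

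The chaperonin TRiC, which folds actin and tubulin, and prefoldin, which feeds it, had 2 higher and 3 lower of 14. The prefoldin subunits Pfdn5 (-1.57, limma adjusted p = 0.00105) and Pfdn1 (-1.34, adjusted p = 0.00279) were lower. Another prefoldin subunit, Vbp1, was higher by 0.69 (adjusted p = 0.0226, with another probe at 0.38 that did not pass), and the TRiC subunit Cct4 by 0.90 (adjusted p = 0.0402). Subunits of the same complex therefore differed in sign.

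**Figure D4:**
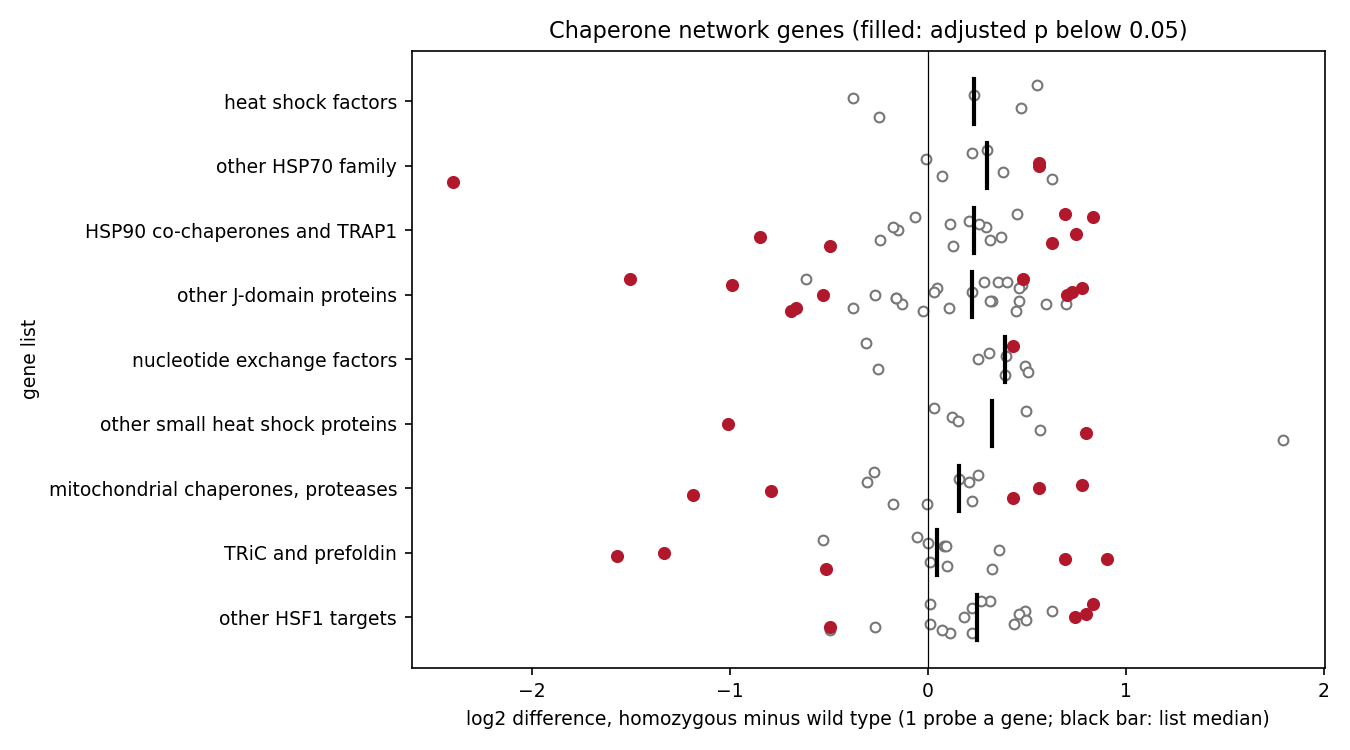
Log2 difference between homozygous and wild-type embryos (x axis) for the measured genes of 9 chaperone lists, 1 point per gene and list; filled points have an adjusted p below 0.05 and the black bar is the list median. Filled points lie on both sides of 0 in 7 of the lists, and Hspa12a is the point farthest to the left.

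Single members differed in how their result against wild type held up. Hsp90ab1, between 1.02 and 1.33, and the second Hspa8 probe, between -1.67 and -1.25, passed under every setting tried for them. In homozygous against wild-type embryos, the brighter Cryab and Dnaja1 probes passed under all settings except those without 1 of the wild-type embryos. Beyond the set, 33 chaperone genes were named for having the smallest p of their list in this same comparison. That 23 of them passed follows from the choice, since 27.3% of the 110 measured did. Of the 23, 5 passed under every setting, namely Hspa12a, Pfdn5, Pfdn1, Dnajc5 and Hspb9. Of the 23, 16 did not pass without the first wild-type embryo and 17 did not pass without the second. Over the 14 settings Grpel1 did not pass in 9, Hspa9 and Cct4 in 8, Hspa2 in 6, and Stip1, Lonp1 and Hspb7 in 5, and the Cct4 difference ranged from 0.57 to 1.23.

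**Figure D5:**
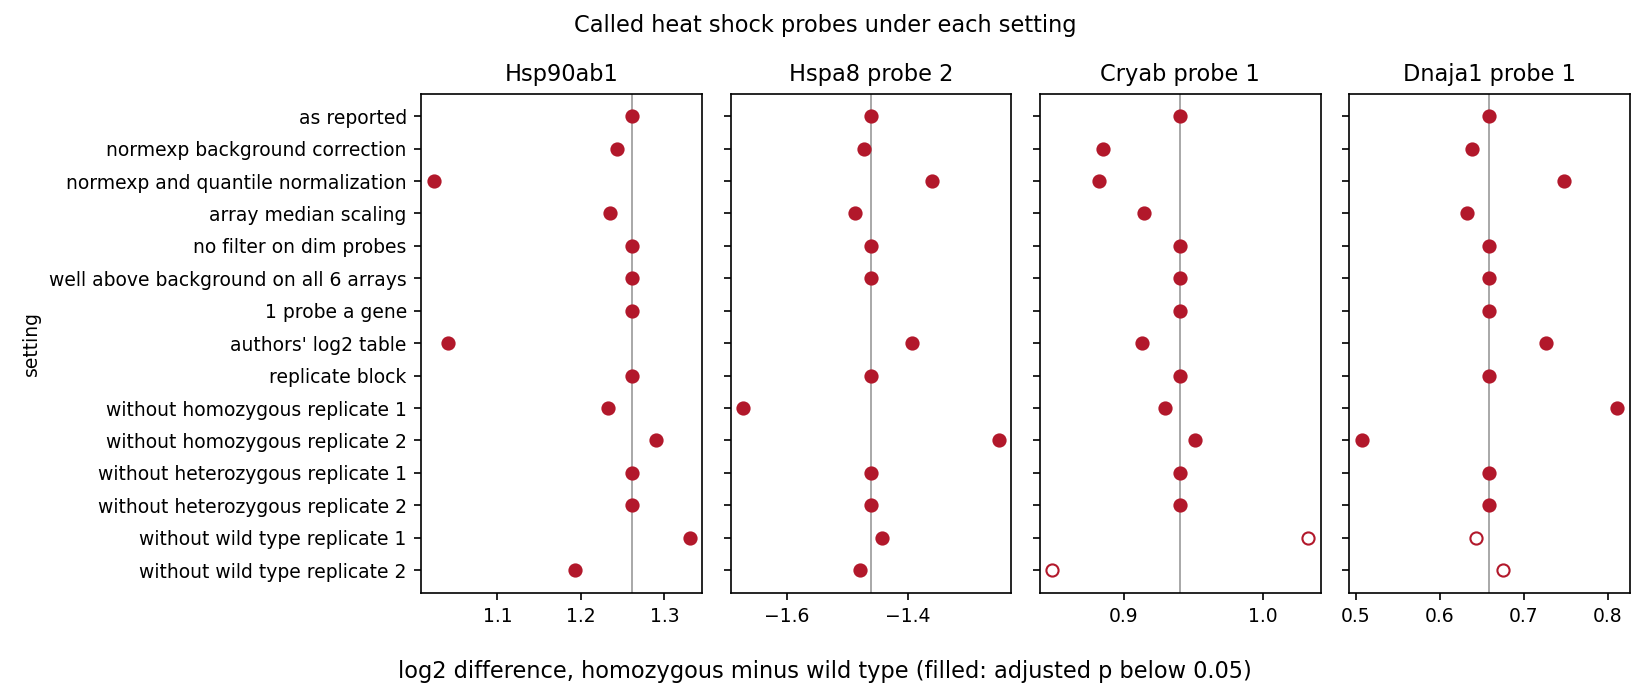
Log2 difference between homozygous and wild-type embryos (x axis; each panel has its own range) for the 4 heat shock probes that passed, under each setting (y axis), with the reported value as a vertical line and filled points for an adjusted p below 0.05. Hsp90ab1 and the second Hspa8 probe stay filled throughout, and the brighter Cryab and Dnaja1 probes are open without 1 of the wild-type embryos. The second Hspa8 probe has no value with 1 probe per gene.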

How the data were processed

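Total RNA of 6 whole embryos was amplified, labelled with Cy3 and hybridised to 1-colour Agilent mouse arrays, per the labels. The authors deposited scanner files of spot intensity values, which per the file headers are background-subtracted within each array, and per the submitters' processing notes come from Feature Extraction 11.0.1.1. A second deposited table, by the authors, holds log2 values with a median of 6.72 on every array and served as an alternative; its normalization is not given in the sources used here. Control spots (1377 of 44397) and outlier spots were left out, and spots of a probe averaged. The intensity was log2 transformed and each array's 75th percentile subtracted. A probe was kept where both arrays of any genotype were well above background (29910 probes). Accessions were matched to gene names, neighbours and promoter windows through RefSeq tables of GRCm38.p6, while the array was annotated to mm9.

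All arrays entered 1 model of genotype in limma 3.58.1 (R 4.3.3; 3 residual and 3.36 prior degrees of freedom), and p-values were adjusted by Benjamini-Hochberg over all kept probes in each comparison. A probe passed below 0.05. The number of arrays limits the precision. Gene lists are given as counts, with no test of the list. The members and lists were chosen with earlier results of these data known. Named were all members, Stat3, up to 4 genes with the smallest p of each chaperone list and up to 4 of the brightest lens and cardiac markers. The result of 1 gene so chosen is not reported here. Hsf1, Hspe1 and the other probes of named genes were added after their values were seen. On simulated data of 29910 probes for homozygous minus wild type, 200 probes were changed. The fit recovered 0% of those changed by a fold of 1.5, 55.2% at 2 and 97.0% at 4. In the real comparison 27.8% of probes passed, which makes the adjusted threshold less strict there. These shares therefore do not give the recovery in the real data. Alternatives were another background correction, normalization, scaling and probe filter, 1 probe per gene, the authors' table, the replicate number as a block, the shared slide alone and each array left out. The alternative background correction (normexp, offset 50) used the median spot signal.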

Additional observations from a re-analysis of the deposited data

How the results depend on the processing

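Counts varied with the array left out and with background correction. Between homozygous and wild-type embryos 3963 probes of the array passed as higher and 4346 as lower. Normexp correction gave 7088 higher, or 67.6% of all that passed against 47.7%, and moved the median of all probes by 0.11. Leaving out 1 array gave 563 to 5471 higher and 1497 to 5311 lower, lowest without the second wild-type array. Heat shock probes then passed as higher in 1 to 4 cases and as lower in 1 to 2, the 1 being without either wild-type array. Normexp with quantile normalization made 2 lower, since the brightest Hspa8 probe passed too. For homozygous against heterozygous embryos, 2896 were higher and 3921 lower, 10633 higher with normexp (76.2% of those that passed, against 42.5%), and 488 to 4559 higher and 1449 to 5013 lower without 1 array, lowest without the first heterozygous array. Heat shock probes there numbered 6 higher with normexp, 1 with no filter on dim probes and 1 to 2 without 1 array, and 2 lower with normexp and quantile normalization or 1 to 2 without 1 array. Heterozygous against wild type gave 0 to 1 higher and 0 to 7 lower probes of the array without 1 array. The 110 other chaperone genes gave 16 higher and 14 lower, 28 and 18 with normexp, 9 and 10 with no filter, and 1 to 23 and 6 to 17 without 1 array, lowest without either wild-type array. The cause of these shifts was not tested.

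Signs turned for differences that had not passed. Against wild type in homozygous embryos, Hspa1a was -0.026 without the second homozygous array, and the third Hspa8 probe was -0.019 with median scaling and -0.42 to 0.44 without 1 array. Hspd1 was 0.058 with normexp, 0.13 with quantile normalization added, and -0.14 to 0.081 without 1 array, and Hsf5 was 0.12 with normexp. In heterozygous embryos, normexp with quantile normalization gave 0.0061 for Hspa1a, 0.016 for the brightest Hspa8 probe and 0.033 for Hspd1, and the authors' table gave 0.017 and 0.0093 for the last pair. Without 1 array the heterozygous ranges were -0.19 to 0.11 for Hspa1a, -0.17 to 0.0058 for the brightest Hspa8 probe, -0.30 to 0.24 for the dimmest Hspa8 probe, -0.14 to 0.11 for the dimmer Dnaja1 probe and -0.13 to 0.067 for Dnajb1. Between homozygous and heterozygous embryos they were -0.39 to 0.47 for the third Hspa8 probe, -0.012 to 0.21 for Hspb1 and -0.10 to 0.12 for Hspd1, which was -0.022 in the authors' table.

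Replicate numbers are shared between genotypes only as numbers. Deviations of same-numbered arrays correlated at 0.286 between homozygous and heterozygous, -0.159 between homozygous and wild-type and -0.0018 between heterozygous and wild-type embryos. With the replicate number as a block, 3778 probes were higher and 4313 lower in homozygous than in wild-type embryos, and the dimmer Cryab probe (0.47, limma adjusted p = 0.049), Hspbp1 (0.50, adjusted p = 0.0375) and Hspb2 (0.57, adjusted p = 0.0425) passed, while Grpel1 (0.43, adjusted p = 0.0596) did not. It changed no other call among the named genes. Within the shared slide alone none of the 13 heat shock probes passed between heterozygous and wild-type embryos.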

Other observations

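The embryos of a genotype differed from each other about as much at the heat shock probes as over the array. The gap between the homozygous embryos had a median of 0.22 over the 13 probes and reached 0.86 at the third Hspa8 probe, against a median of 0.25 over all kept probes. Heterozygous embryos had a median gap of 0.20 (highest 0.55, all probes 0.17) and wild-type embryos one of 0.14 (highest 0.19, all probes 0.11). The third Hspa8 probe had the widest gap in both mutant genotypes, and its gap between wild-type embryos was 0.05.

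Relative to the brightest Hspa8 probe on the same array, Hsp90ab1 stood at 0.87 and 1.24 in homozygous embryos, -0.35 and -0.41 in heterozygous and -0.58 and -0.55 in wild-type embryos. The mean of this offset was 1.62 higher in homozygous than in wild-type embryos, and its absolute value depends on the probes. Bag5, an HSP70 exchange factor, gave 0.39 (limma adjusted p = 0.0545) at its brightest probe and 0.77 (adjusted p = 0.00889) at its other probe. Hsf2 differed by 0.81 between homozygous and heterozygous embryos (adjusted p = 0.0298) and by 0.47 between homozygous and wild-type embryos (adjusted p = 0.114). Both examples were picked with their values in view.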
